A study of Mus musculus with 14 samples.

Results

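Epithelial chemokines, 9 genes in all, were followed in the colonic epithelium: Ccl20, Ccl25, Ccl28, Cxcl1, Cxcl5, Cxcl9, Cxcl10, Cxcl16 and Cx3cl1. They were picked by symbol as ligands that intestinal epithelial cells are known to make, and 8 of the 9 were paired with a row of counts among the 37680 genes of the table. Ccl28 was paired with no gene identifier in the annotation used and was not analysed here. Each of the 8 passed the filter of at least 10 counts in at least 3 of the 14 libraries.

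The epithelium was taken with EDTA from the whole colon of mice 8 to 14 weeks old, on a background enriched for C57/BL6, and polyadenylated RNA was sequenced in 4 groups. Wild-type mice on water gave 4 libraries, Smad4 IEC-KO mice on water 4, wild-type mice given 2.5% dextran sulfate sodium (DSS) for 3 days 3, and Smad4 IEC-KO mice given the same DSS 3. For Smad4 IEC-KO on water, the study's figure legends give 3 replicates, where 4 libraries carry that label here. Smad4 IEC-KO mice carried Villin-CreERT2 and Smad4 f/f, so that 4 days of tamoxifen removed Smad4, the shared mediator of TGFβ and BMP signals, from the cells in which the Villin promoter is active. The study's methods place Villin-CreERT2 in mutants and controls alike, but its scheme draws tamoxifen in the knockout arm only, so tamoxifen and the loss of Smad4 cannot be told apart here. DSS in the drinking water injures the colonic epithelium.

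Chemokines are small secreted or membrane-bound proteins that attract leukocytes carrying the matching receptor. In the gut, Cxcl1 and Cxcl5 draw neutrophils through Cxcr2, Cxcl9 and Cxcl10 draw activated T cells through Cxcr3, and Ccl20 draws Ccr6-bearing lymphocytes and dendritic cells. Ccl25 is the ligand of Ccr9, and Cxcl16 and Cx3cl1 are made as transmembrane proteins that bind Cxcr6 and Cx3cr1. Many of these genes are induced by NF-κB, by interferons or by both.

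The promoters of Cxcl1, Cxcl10 and Ccl20 are shown because they hold matches to the NF-κB consensus, and that of Cxcl9 for comparison with its neighbour Cxcl10. RefSeq (GRCm38.p6) held a promoter for 7 of the 9 genes, and none for Cxcl5 and Cxcl16. Each sequence is the 250 bases before the transcription start, read 5′ to 3′ on the gene's strand. Capitals mark letters that match the NF-κB consensus, the interferon-stimulated response element GAAANNGAAA or the TATA box TATAAA on either strand.
Cxcl1 (chr5:90890995-90891244, + strand): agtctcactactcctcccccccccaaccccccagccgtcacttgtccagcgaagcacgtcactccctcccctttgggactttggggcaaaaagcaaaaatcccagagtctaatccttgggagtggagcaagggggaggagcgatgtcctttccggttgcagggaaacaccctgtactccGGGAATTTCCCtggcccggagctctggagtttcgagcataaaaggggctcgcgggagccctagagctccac
Cxcl10 (chr5:92348890-92349139, − strand): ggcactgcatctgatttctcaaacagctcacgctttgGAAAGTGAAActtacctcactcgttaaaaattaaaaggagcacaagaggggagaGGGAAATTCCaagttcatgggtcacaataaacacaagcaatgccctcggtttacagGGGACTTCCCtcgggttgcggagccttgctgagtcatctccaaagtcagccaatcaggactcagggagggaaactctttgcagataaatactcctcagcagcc
Ccl20 (chr1:83116516-83116765, + strand): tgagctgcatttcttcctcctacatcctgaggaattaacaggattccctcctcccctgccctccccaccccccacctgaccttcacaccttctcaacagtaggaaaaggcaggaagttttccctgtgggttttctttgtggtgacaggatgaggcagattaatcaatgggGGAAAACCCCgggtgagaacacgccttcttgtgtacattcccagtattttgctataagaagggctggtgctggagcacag
Cxcl9 (chr5:92328080-92328329, − strand): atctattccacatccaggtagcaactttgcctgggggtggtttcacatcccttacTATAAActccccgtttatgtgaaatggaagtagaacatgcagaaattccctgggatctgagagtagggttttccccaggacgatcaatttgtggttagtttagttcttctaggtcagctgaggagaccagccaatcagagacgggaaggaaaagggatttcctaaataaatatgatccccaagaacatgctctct

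The Cxcl1 promoter held 2 overlapping NF-κB matches, 71 to 61 bases before the start, and the Ccl20 promoter held 1, 80 to 71 bases before it. The Cxcl10 promoter held 2 NF-κB matches, at 159 to 150 and 103 to 94 bases before the start, and 1 match to the interferon-stimulated response element at 213 to 204. A match to the NF-κB consensus was found in 4.505% of 32851 promoter windows of 300 bases, each with the 250 bases before and 50 after a start, and one to the interferon-stimulated response element in 3.443%. Cxcl9 had a TATAAA match at 195 to 190 bases before its start, a motif held by 13.62% of windows. The AP-1 letters TGANTCA, found in 7.808% of windows, stood 74 to 68 bases before the start of Cxcl10 and 32 to 38 bases after that of Cxcl9, beyond the stretch printed, with no overlap with the other motifs; Ccl28 held them 21 to 27 bases after its start. The gamma-activated site letters TTCNNNGAA, found in 8.298% of windows, matched none of the chemokine windows. These matches are strings of letters and not measured binding.

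In the mm9 annotation, all 8 genes are protein coding. Cxcl5 (chr5:91188325-91190651) and Cxcl1 (chr5:91320267-91322141) lie 129.6 kb apart on the + strand. Cxcl9 (chr5:92750357-92757105) and Cxcl10 (chr5:92775664-92777915) lie 18.6 kb apart on the − strand. Ccl20 is at chr1:83113341-83115742, Cxcl16 at chr11:70267485-70273486, Ccl25 at chr8:4325210-4360020 and Cx3cl1 at chr8:97295909-97306323. The strand setting of the counting is not given in the sources used here, so reads in the 8.75% of Cxcl10 exon bases shared with Art3 and the 18.3% of Cxcl16 exon bases shared with Zmynd15, both on the opposite strand, are uncertain in origin. Ccl25 shares 41.6% of its exon bases with a second identifier of the same symbol, which had 0 counts in every library, and its count is likewise uncertain.

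The libraries held 12882827 to 26087231 counts, of which 4.05% to 32.8% came from mitochondrial genes. The highest mitochondrial shares were those of WT water replicates 3 and 4, at 30.6% and 32.8%, and Smad4 IEC-KO water replicate 4, at 21.4%. Normalized Smad4 counts were 2296 to 3085 in WT water, 3298 to 3532 in WT DSS and 782 to 850 in Smad4 IEC-KO DSS. In Smad4 IEC-KO water they were 679 to 906 in 3 libraries, but 3063 in the library labelled Smad4 KO water replicate 1, so values that rest on it are also given without it. The summed level of 10 colon epithelial markers was 16385 to 27463 CPM (counts scaled to a common library size), against 8.11 to 30.5 CPM for 3 pan-leukocyte markers.

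In all 5 comparisons, no chemokine passed the test (edgeR's quasi-likelihood test, Benjamini-Hochberg adjusted p below 0.05 over 15127 genes). The share of all genes that passed was 0.747% between the genotypes after DSS, 0.00661% between the genotypes on water, 0% between DSS and water in WT, 0.00661% between DSS and water in Smad4 IEC-KO, and 0.00661% for the difference between the DSS responses. At an unadjusted p below 0.05, DSS against water in WT gave 3 of 8 chemokines, against 24.2% of all genes, and the genotype comparison after DSS also gave 3, against 15.4%. The genotype comparison on water gave 1 of 8 against 20.4%, DSS against water in Smad4 IEC-KO 0 of 8 against 6.37%, and the difference between the responses 1 of 8 against 7.5%. DESeq2, used as an alternative, called 3 chemokines between DSS and water in WT, 1 in each genotype comparison, and 0 in the rest. It also called more of all genes than edgeR in each comparison, by the counts given in the last section. Fewer cells of a type and less RNA per cell cannot be told apart in these bulk libraries.

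**Figure D1:**
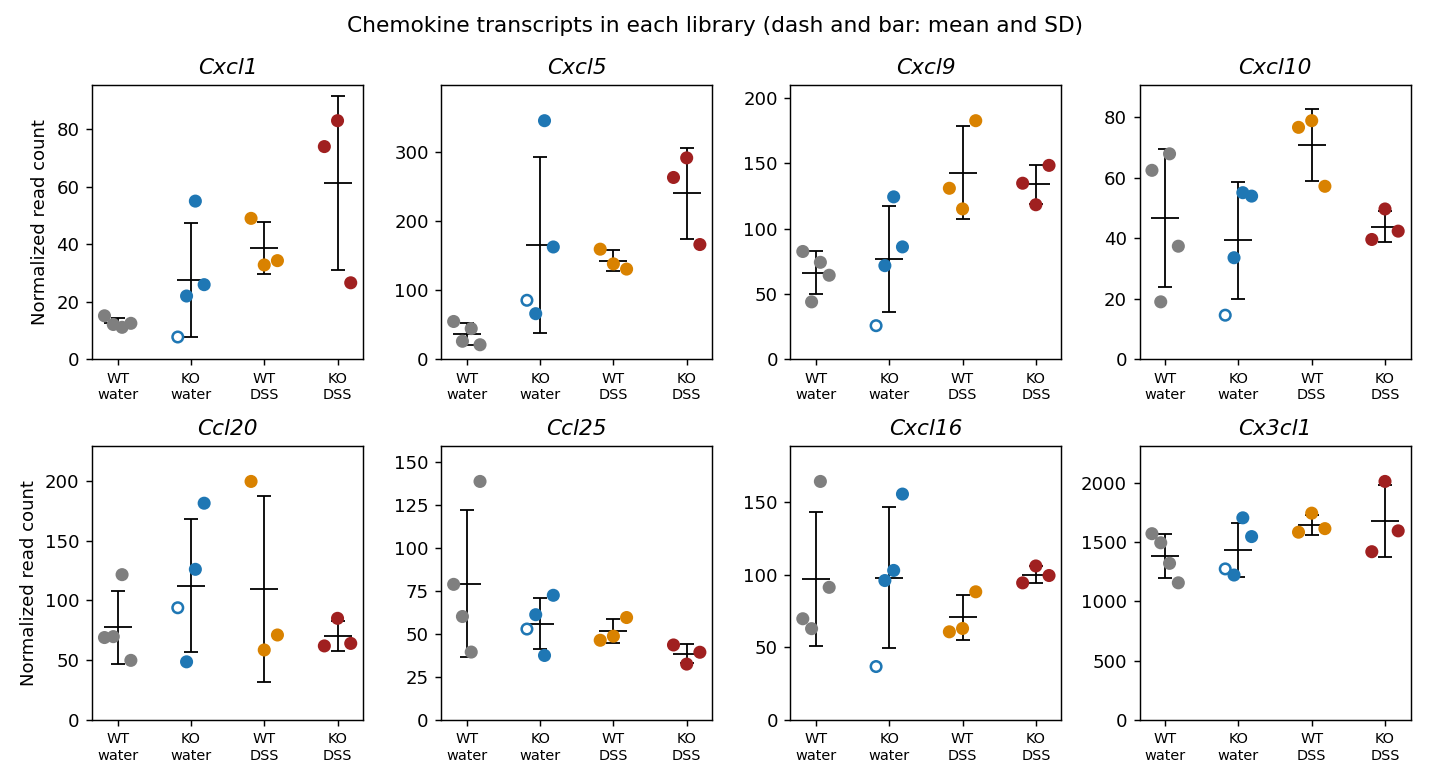
Normalized read count (vertical axis, from 0, a separate scale for each gene) of the 8 chemokines in each of the 14 libraries by group; dashes and bars give the mean and SD, and the open circle is the library labelled Smad4 KO water replicate 1. Cxcl5 was between 20.7 and 54.5 in WT water and between 131 and 159 in WT DSS, while Cx3cl1 stayed within 1156 to 2012 in all libraries.

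Cxcl5, a neutrophil-attracting chemokine of epithelial cells, was the most variable of the 8, with a coefficient of variation of 72.9% over the 14 libraries and a 16.7-fold range. Its normalized counts were 54.5, 25.8, 44.2 and 20.7 in WT water and 85.2, 65.8, 346 and 163 in Smad4 IEC-KO water. They were 159, 138 and 131 in WT DSS and 263, 292 and 166 in Smad4 IEC-KO DSS. The raw counts ran from 10 to 76 in WT water, 57 to 434 in Smad4 IEC-KO water, 156 to 179 in WT DSS and 169 to 306 in Smad4 IEC-KO DSS. Every WT water library was below every library of the other 3 groups, and every Smad4 IEC-KO DSS library was above every WT DSS library.

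The log2 fold change of Cxcl5 for DSS against water in WT was 1.94 ± 0.34 (SE; adjusted p = 0.069 by edgeR). Without WT water replicate 2 it was 1.80 (adjusted p = 0.049 by edgeR), with 418 of all genes called against 0 as reported. With DESeq2 it was 1.94 (adjusted p = 1.8e-05), also with many more genes called. Among libraries whose names begin with D alone, replicates 1 and 2 of WT water and of WT DSS, it was 1.88 ± 0.40 (adjusted p = 0.17 by edgeR). The part of the mitochondrial shares in the result was not tested. Groups did not overlap for Cxcl5, Cxcl1, Cxcl9 and Cx3cl1, all 4 with DSS higher, where 12.8% of all genes had DSS higher without overlap.

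Between the genotypes on water, the log2 fold change of Cxcl5 was 2.16 ± 0.53 (SE; adjusted p = 0.16 by edgeR), the largest among the 8. It was 2.38 (adjusted p = 0.13) on leaving out the library labelled Smad4 KO water replicate 1 and 1.51 (adjusted p = 0.38) without replicate 3 of that group, which held the highest level. It passed the edgeR test without replicate 4 (2.17, adjusted p = 0.038), in 1 model of all 14 libraries (2.15, adjusted p = 0.024) and in that model without the library labelled replicate 1 (2.37, adjusted p = 0.014), and it passed with DESeq2 (adjusted p = 0.0050). Each of these settings also called many more of all genes, 1740 without replicate 4 against 1 as reported. Cxcl5 was the 1 chemokine of 8 without overlap between the genotypes on water, where 5.18% of all genes had Smad4 IEC-KO higher without overlap.

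After DSS, the log2 fold change of Cxcl5 between the genotypes was 0.76 ± 0.21 (SE; adjusted p = 0.15 by edgeR, 0.033 by DESeq2). In Smad4 IEC-KO, DSS against water gave 0.55 ± 0.49 (adjusted p = 0.88), where the water libraries spanned 65.8 to 346, and 0.33 ± 0.50 (adjusted p = 0.94) without the library labelled replicate 1. It was 1.19 ± 0.37 (adjusted p = 0.45) without Smad4 IEC-KO water replicate 3, and 0.29 without replicate 2. The DSS response of Smad4 IEC-KO minus that of WT was −1.40 ± 0.66 on the log2 scale for Cxcl5 (adjusted p = 0.64 by edgeR). An interval of 2 SE to either side ran from −2.72 to −0.08. It was −0.74 (adjusted p = 0.89) without Smad4 IEC-KO water replicate 3 and −1.62 (adjusted p = 0.58) without the library labelled replicate 1.

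Cxcl1, the mouse chemokine known as KC and a ligand of Cxcr2, was at 15.1, 12.0, 11.04 and 12.4 normalized counts in WT water, from raw counts of only 6 to 21. It was at 7.67, 21.9, 55.0 and 25.9 in Smad4 IEC-KO water, at 49.0, 32.8 and 34.3 in WT DSS, and at 74.0, 83.0 and 26.5 in Smad4 IEC-KO DSS. The 4 WT water libraries lay close together, and the lowest level of all was that of the library labelled Smad4 KO water replicate 1, with 9 raw counts. Between DSS and water in WT, the log2 fold change was 1.59 ± 0.40 (SE; adjusted p = 0.091 by edgeR, 0.011 by DESeq2).

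The other comparisons of Cxcl1 had overlapping groups. Its log2 fold change was 1.12 ± 0.64 (SE) between the genotypes on water (adjusted p = 0.34 by edgeR), and 1.43 ± 0.61 (adjusted p = 0.25) without the library labelled replicate 1. Without replicate 3 of that group it was 0.54. It was 0.67 ± 0.40 between the genotypes after DSS (adjusted p = 0.47), where 2 of the 3 Smad4 IEC-KO DSS libraries lay above all WT DSS libraries and 1 below them. For DSS against water in Smad4 IEC-KO, Cxcl1 gave 1.14 ± 0.61 (adjusted p = 0.77), and 0.83 ± 0.54 (adjusted p = 0.81) without the library labelled replicate 1. With that library left out, the other 3 Smad4 IEC-KO water libraries, at 21.9 to 55.0, lay above all WT water libraries. The share of all genes that separate in this way without that library was not computed.

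Cxcl9, an interferon-γ-induced ligand of Cxcr3, was at 82.5, 43.8, 74.1 and 64.2 normalized counts in WT water and at 25.6, 71.6, 124 and 86.0 in Smad4 IEC-KO water. After DSS it was at 131, 115 and 183 in WT and at 135, 118 and 148 in Smad4 IEC-KO. The Smad4 IEC-KO DSS levels lay within the WT DSS range, and both DSS groups lay above WT water. The log2 fold change for DSS against water in WT was 1.11 ± 0.29 (SE; adjusted p = 0.096 by edgeR, 0.0094 by DESeq2), and in Smad4 IEC-KO it was 0.81 ± 0.43 (adjusted p = 0.77), or 0.51 ± 0.29 (adjusted p = 0.79) without the library labelled replicate 1. Between the genotypes after DSS it was −0.09 ± 0.21 (adjusted p = 0.87), with an interval, built from the SE as for Cxcl5, of −0.51 to 0.33.

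Cxcl10, the neighbour of Cxcl9 and also a Cxcr3 ligand, was at 62.4, 18.9, 67.8 and 37.3 normalized counts in WT water and at 14.5, 33.5, 55.0 and 53.9 in Smad4 IEC-KO water. After DSS it was at 76.6, 78.8 and 57.1 in WT and at 39.5, 49.6 and 42.3 in Smad4 IEC-KO. All 3 Smad4 IEC-KO DSS libraries were below all 3 WT DSS libraries, with raw counts of 39 to 52 against 70 to 89. The log2 fold change was −0.69 ± 0.25 (SE; adjusted p = 0.24 by edgeR), and it ran from −0.82 to −0.60 when each library was left out in turn.

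For DSS against water, Cxcl10 gave a log2 fold change of 0.60 ± 0.43 in WT and 0.16 ± 0.48 in Smad4 IEC-KO, with overlapping groups in both; the latter was −0.11 ± 0.39 without the library labelled replicate 1. Between the genotypes on water it gave −0.25 ± 0.54, and 0.03 ± 0.53 on leaving out the library labelled Smad4 KO water replicate 1. So Cxcl9 and Cxcl10, though neighbours with the same receptor, had log2 values of −0.09 and −0.69 in the genotype comparison after DSS, a difference that was not tested.

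**Figure D2:**
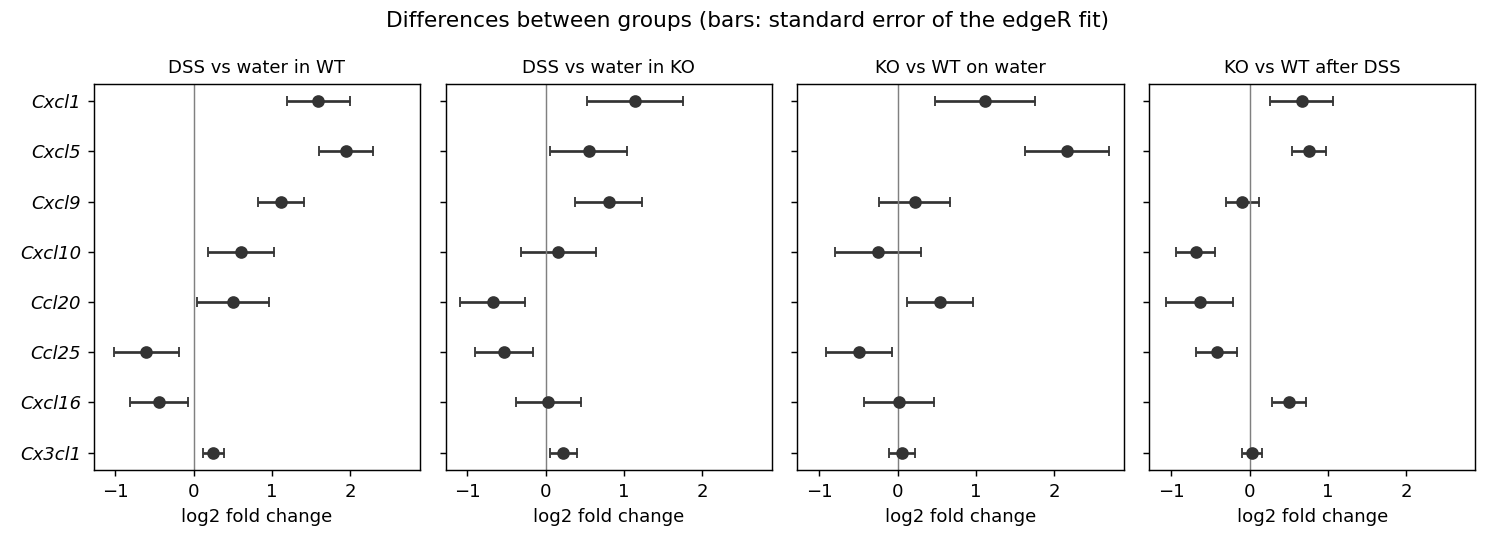
log2 fold change (horizontal axis) of each of the 8 chemokines in 4 comparisons between groups, with bars for the standard error of the edgeR fit. For DSS against water in WT, Cxcl1, Cxcl5 and Cxcl9 lay between 1.11 and 1.94, and no point in any panel passed the adjusted threshold.

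Ccl20, the ligand of Ccr6, was at 68.8, 69.6, 121 and 49.7 normalized counts in WT water and at 93.8, 48.5, 126 and 181 in Smad4 IEC-KO water. After DSS it was at 199, 58.4 and 71.0 in WT and at 61.8, 84.9 and 63.9 in Smad4 IEC-KO. The highest level was that of WT DSS replicate 1, and all groups overlapped. Its log2 fold change between the genotypes after DSS was −0.64 ± 0.43 (SE; adjusted p = 0.51 by edgeR), and 0.12 (adjusted p = 0.86) without WT DSS replicate 1. In WT, DSS against water gave 0.50 ± 0.46 for Ccl20, and −0.26 without that same library, so both directions rested on 1 library.

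Ccl20 gave a log2 fold change of 0.54 ± 0.42 (SE) between the genotypes on water and −0.68 ± 0.41 for DSS against water in Smad4 IEC-KO (adjusted p = 0.48 and 0.82 by edgeR). Without the library labelled replicate 1 these were 0.62 and −0.76. The DSS response of Smad4 IEC-KO minus that of WT was −1.18 ± 0.65 for Ccl20 (adjusted p = 0.67). It was −0.42 (adjusted p = 0.92) without WT DSS replicate 1 and −1.26 (adjusted p = 0.63) without the library labelled replicate 1.

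Ccl25, which is best known from thymus and small intestine, was at 78.9, 60.1, 39.4 and 139 normalized counts in WT water and at 52.8, 61.2, 37.5 and 72.5 in Smad4 IEC-KO water. After DSS it was at 46.3, 48.7 and 59.5 in WT and at 43.6, 32.4 and 39.3 in Smad4 IEC-KO. The Smad4 IEC-KO DSS libraries were below the WT DSS libraries without overlap, by a narrow gap, and the highest level was in WT water replicate 4, the library with the highest mitochondrial share; the part of that share in the result was not tested. The log2 fold change between the genotypes after DSS was −0.42 ± 0.26 (SE; adjusted p = 0.48 by edgeR). In the other comparisons Ccl25 gave −0.60 ± 0.41 for DSS against water in WT, −0.54 ± 0.37 for DSS against water in Smad4 IEC-KO and −0.49 ± 0.42 between the genotypes on water, with overlapping groups. On leaving out the library labelled replicate 1 of Smad4 IEC-KO water, the last 2 values were −0.56 ± 0.41 and −0.46 ± 0.49.

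Cxcl16, a transmembrane chemokine and scavenger receptor, was at 69.5, 62.7, 164 and 91.2 normalized counts in WT water and at 36.7, 95.8, 103 and 155 in Smad4 IEC-KO water. After DSS it was at 60.6, 62.9 and 88.1 in WT and at 94.2, 106 and 99.3 in Smad4 IEC-KO. The water groups were broad and overlapped, whereas the Smad4 IEC-KO DSS libraries were close together and all above the WT DSS libraries. The log2 fold change between the genotypes after DSS was 0.50 ± 0.22 (SE; adjusted p = 0.32 by edgeR), against 0.02 ± 0.45 on water and 0.30 ± 0.40 on water without the library labelled replicate 1. DSS against water gave −0.44 ± 0.37 for Cxcl16 in WT and 0.04 ± 0.41 in Smad4 IEC-KO, and −0.24 ± 0.29 without that library.

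Between the genotypes after DSS, the groups thus did not overlap for 4 of the 8 chemokines: Cxcl5 and Cxcl16 were higher in Smad4 IEC-KO, and Cxcl10 and Ccl25 lower. Over all genes, 10.4% were higher and 11.4% lower without overlap in that comparison. No chemokine had separate groups for DSS against water in Smad4 IEC-KO, where 8.88% of all genes did.

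Cx3cl1, also called fractalkine, is the membrane-anchored ligand of Cx3cr1 and was the most counted of the 8. It was at 1571, 1494, 1320 and 1156 normalized counts in WT water and at 1273, 1222, 1705 and 1546 in Smad4 IEC-KO water. After DSS it was at 1583, 1744 and 1614 in WT and at 1419, 2012 and 1595 in Smad4 IEC-KO. These levels spanned a 1.74-fold range with a coefficient of variation of 15.1%, the least of the 8.

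For DSS against water in WT, the log2 fold change of Cx3cl1 was 0.25 ± 0.13 (SE; adjusted p = 0.28 by edgeR), with a gap between the groups of only 1571 to 1583 normalized counts. In Smad4 IEC-KO the same comparison gave 0.22 ± 0.17, and 0.17 ± 0.19 without the library labelled replicate 1. Between the genotypes Cx3cl1 gave 0.03 ± 0.13 after DSS and 0.05 ± 0.17 on water. Their intervals, built from the SE as for Cxcl5, were −0.23 to 0.28 and −0.28 to 0.38. The value on water was 0.11 ± 0.19 without the library labelled replicate 1.

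For the remaining 6 chemokines too, the DSS response of Smad4 IEC-KO minus that of WT did not pass the test. It was −0.45 ± 0.76 (SE) for Cxcl1, −0.31 ± 0.55 for Cxcl9, −0.44 ± 0.66 for Cxcl10, 0.07 ± 0.55 for Ccl25, 0.48 ± 0.58 for Cxcl16 and −0.03 ± 0.22 for Cx3cl1 on the log2 scale (adjusted p from 0.83 to 0.98 by edgeR). On leaving out the library labelled replicate 1 of Smad4 IEC-KO water these were −0.77, −0.61, −0.72, 0.04, 0.20 and −0.08 in the same order. A DSS response that differs between the genotypes was thus not detectable for any of the 8, Cxcl5 and Ccl20 included, at this number of libraries.

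Levels of different genes were compared per exon length, as reads scaled to exon length and library size (RPKM). Cx3cl1 was at 19.3 ± 2.58 RPKM in WT water, 19.997 ± 3.18 in Smad4 IEC-KO water, 22.9 ± 1.19 in WT DSS and 23.3 ± 4.24 in Smad4 IEC-KO DSS (mean ± SD). It was above the other 7 in each group without overlap, at a level that 78.3% to 82.3% of 15106 tested genes did not exceed. In WT water the other 7 ran from Ccl20 at 2.81 ± 1.12 down to Cxcl1 at 0.685 ± 0.0928, and each overlapped its neighbour in that order.

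Cxcl5 was next to last in WT water at 1.13 ± 0.492 RPKM, and second in the other 3 groups, at 5.14 ± 3.98 in Smad4 IEC-KO water, 4.45 ± 0.467 in WT DSS and 7.50 ± 2.06 in Smad4 IEC-KO DSS. It overlapped the third gene, Ccl20, in Smad4 IEC-KO water and in WT DSS, and was clear of the third gene, Cxcl1, in Smad4 IEC-KO DSS. Ccl25 was last in those 3 groups, at 1.08, 0.997 and 0.744 RPKM. Its exon length includes the 41.6% of bases shared with the second Ccl25 identifier, so its level per length and its place are uncertain. On leaving out the library labelled replicate 1 of Smad4 IEC-KO water, the Smad4 IEC-KO water means were 20.8 for Cx3cl1, 5.97 for Cxcl5, 4.31 for Ccl20 and 1.10 for Ccl25.

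**Figure D3:**
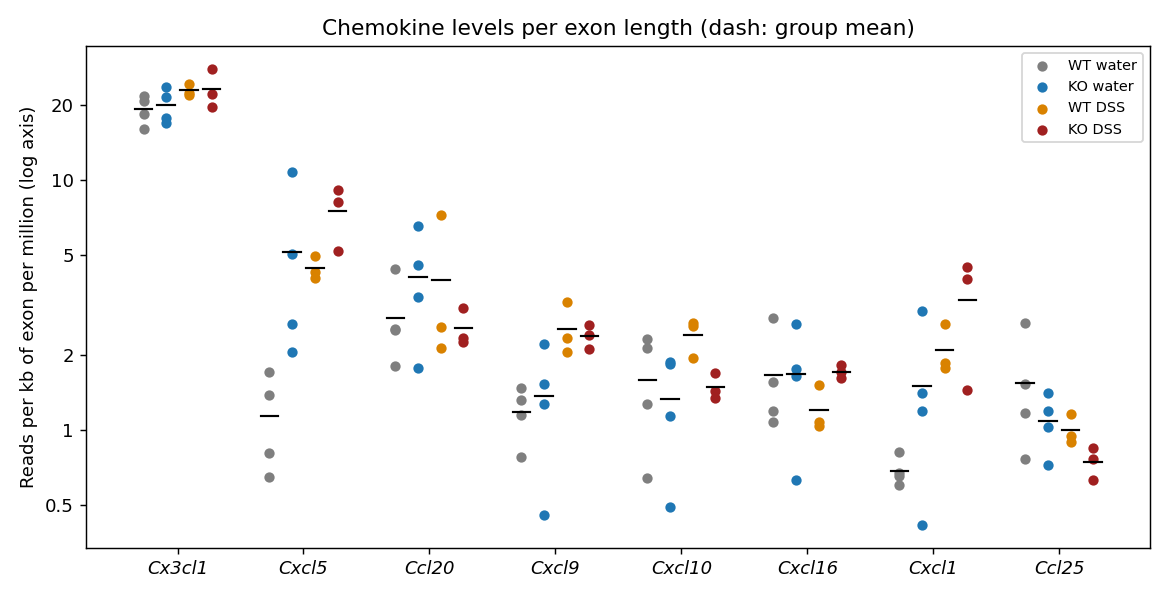
Level of each chemokine per exon length (vertical log axis, RPKM) in each of the 14 libraries, coloured by group, with dashes at the group means. Cx3cl1 stood between group means of 19.3 and 23.3 in every group, and Cxcl5 moved from 1.13 in WT water to 7.50 in Smad4 IEC-KO DSS.

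Of the 28 pairs of chemokines, Cxcl1 and Cxcl5 had the highest correlation of log2 CPM over the 14 libraries (Pearson r = 0.85, Spearman rho = 0.83), and r = 0.71 after the group means were taken out. Cxcl1 and Cxcl9 followed (r = 0.79, rho = 0.81, and 0.65 within groups). Cxcl9 and Cxcl10 had r = 0.75 and 0.79 within groups but rho = 0.48, and both were lowest in the library labelled Smad4 KO water replicate 1. Ccl25 ran opposite to Cxcl5 (r = −0.69). The points share libraries, and so depth and composition, and these values are descriptions.

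**Figure D4:**
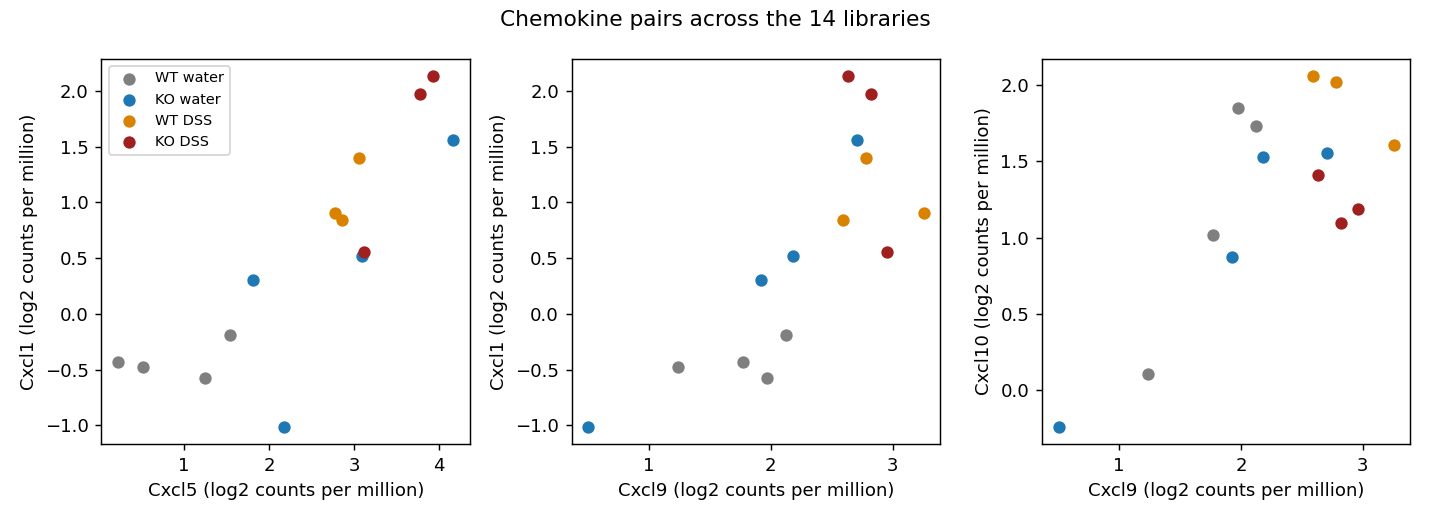
log2 CPM of Cxcl1 against Cxcl5, Cxcl1 against Cxcl9 and Cxcl10 against Cxcl9 (both axes on the log2 scale), 1 point for each of the 14 libraries, coloured by group. The Pearson correlations are 0.85, 0.79 and 0.75; WT water libraries sit at the low end for Cxcl1 and Cxcl5.

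Among genes with a mean of at least 50 counts, those most like Cxcl1 over the 14 libraries were Dmbt1 (Pearson r = 0.93), Reg3g (0.91) and Adcy2 (0.90). Dmbt1 and Reg3g encode secreted mucosal defence proteins of the gut. Those most like Cxcl5 were Nfxl1 (0.97), Tnfrsf1b (0.95), a TNF receptor, and Uso1 (0.95). Those most like Cxcl9 were Igtp (0.89), Ido1 (0.88) and Daglb (0.88), of which Igtp and Ido1 are interferon-γ-induced genes. The highest r was 0.83 for Cxcl10 (Tubal3), 0.85 for Ccl20 (Lama3), 0.92 for Ccl25 (Aven), 0.80 for Cxcl16 (Eif4g3) and 0.94 for Cx3cl1 (AI661453). Each is among the highest of at least 11565 values and carries no test.

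Several inducible chemokine mRNAs are known to be short-lived, and the pentamer ATTTA in a 3′ untranslated region is a letter pattern of unstable mRNAs. It occurred 7 times in that of Cxcl1 (11.8 per kb) and 9 times in that of Ccl20 (8.57 per kb), densities reached by 0.530% and 1.53% of 18299 genes. Cxcl5 had 5 (4.50 per kb), Cxcl9 3, Cxcl10 2, Cxcl16 2, Cx3cl1 1 and Ccl25 0, and the median over all these genes was 1.201 per kb.

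The receptors for these ligands were rare in the epithelium. The highest raw count in any of the 14 libraries was 6 for Cxcr2, 6 for Ccr6, 19 for Ccr9, 15 for Ccr10, 2 for Ccr3, 21 for Cxcr3, 41 for Cxcr6 and 18 for Cx3cr1. Cxcr2 had no count in 11 of the 14 libraries and Ccr3 in 13. Of 18 conventional chemokine receptors, 10 passed the filter, and 0 passed the test in any comparison. No gene passed either among the 3 of 5 atypical receptors, which bind chemokines without classical signalling, and the 4 of 5 proteases that shed or trim chemokines that passed the filter.

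Of 28 other chemokine ligands, 11 passed the filter and 0 passed the test in any comparison. Their median log2 fold change was 0.58 between the genotypes after DSS, 0.11 on water, −0.02 for DSS against water in WT, 0.02 for DSS against water in Smad4 IEC-KO and 0.34 for the difference between the responses, none of which was tested. The medians of the 8 chemokines were −0.03, 0.13, 0.55, 0.19 and −0.38 in the same order, and those over all genes lay between −0.02 and 0.003. Ccl6, chosen after its values were seen, was the most counted of them, with 4214 to 13790 raw counts.

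Of 15 receptors and adaptors for cytokines and microbial products that induce chemokines, all were tested and 1 passed the test: Il17rc, a subunit of the IL-17 receptor. Il17rc was lower in Smad4 IEC-KO after DSS, at 2471, 2481 and 2610 normalized counts against 3535, 4282 and 3823 in WT (log2 fold change −0.62 ± 0.10 SE, adjusted p = 0.033 by edgeR). The call was lost in 10 of 15 alternatives, among them the replicate block (adjusted p = 0.067), 1 model of all 14 libraries (adjusted p = 0.999) and 5 of the 6 fits that left out 1 library.

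Of 20 transcription factors and RNA regulators of chemokine induction, all were tested and 1 passed: Stat2, which carries signals of type I interferon. It was at 1191, 1336 and 1311 normalized counts in Smad4 IEC-KO DSS against 1758, 1747 and 1781 in WT DSS (log2 fold change −0.46 ± 0.086 SE, adjusted p = 0.0496 by edgeR). That call was lost in 12 of 15 alternatives, among them each of those that left out 1 library (adjusted p from 0.097 to 0.18), the replicate block (adjusted p = 0.095) and 1 model of all 14 libraries (adjusted p = 0.999). In the other 4 comparisons 0 of these 35 genes passed.

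Markers of other cells were measured beside the chemokines. The summed level of 6 fibroblast markers was 7.21 to 12.97 CPM in Smad4 IEC-KO DSS and 0.276 to 1.89 CPM in WT DSS. Of the 4 tested, 3 were called higher in Smad4 IEC-KO (Col1a1, Col1a2 and Col3a1), and Dcn was not called. Pdgfra and Lum reached at most 10 and 1 raw counts and were not tested. The sum was 2.98 to 24.8 CPM in Smad4 IEC-KO water and 0.896 to 4.06 CPM in WT water, with the highest value in Smad4 IEC-KO water replicate 4. Fibroblasts can make Cxcl1 and Cxcl5, and the part of these cells in the Cxcl5 difference was not tested.

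Of 6 neutrophil markers, Csf3r, Mpo and Retnlg reached at most 7, 2 and 1 raw counts, while S100a8 and S100a9, which inflamed epithelium also makes, were called higher in Smad4 IEC-KO after DSS (log2 fold change 3.21 and 3.06). Ly6g, with 576 to 2057 raw counts, made up most of the summed neutrophil marker level and gave a log2 fold change of 0.20 ± 0.19 between the genotypes after DSS (adjusted p = 0.65 by edgeR). The sum was 67.7 to 85.4 CPM in Smad4 IEC-KO DSS, 39.7 to 75.6 in WT DSS, 52.8 to 112 in Smad4 IEC-KO water and 55.9 to 73.1 in WT water. For 7 T, NK and B cell markers it was 12.3 to 14.4, 10.3 to 16.5, 8.27 to 25.1 and 4.80 to 17.8 CPM in the same order. Macrophage and monocyte markers summed to 139 to 191, 171 to 216, 107 to 159 and 96.5 to 191 CPM. Most of that sum was Cd14, with 1065 to 4466 raw counts, while Adgre1 reached at most 11. Smooth muscle markers stayed at or below 5.77 CPM and endothelial markers at or below 0.855 CPM in every library. The part of these cells in the chemokine levels was not tested.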

How the data were processed

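The authors aligned reads of 150 bases to mm9 with Hisat2 and counted them per gene with featureCounts; the deposited values are raw counts per gene and library, not normalized. The annotation release is not given in the sources used here. Counts were tested with edgeR 4.0.16 (quasi-likelihood test, TMM factors, R 4.3.3), with only the compared groups in each fit and all 14 libraries for the difference between DSS responses. Genes needed at least 10 counts in at least 3 libraries, which left 15127, and adjusted p below 0.05 was called. Normalized counts are scaled to a common effective library size. The fit was tested on simulated data. Alternatives were DESeq2 1.42.0, other factors, filters and models, a replicate block, and leaving out each library. The named genes are the 9 chemokines, Smad4, called members of fixed lists with a mean of at least 50 counts, the receptors of the 9, and the 3 most correlated genes. The members and lists were chosen with earlier results of these data known. The labels do not tie libraries to separate mice, so p-values measure the spread between libraries.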

Additional observations from a re-analysis of the deposited data

How the results depend on the processing

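No chemokine passed the edgeR test as reported, so what varied was how many passed and the sign of uncalled values; apart from the Cxcl5 and Ccl20 values given above, the cause was not tested. DESeq2 called 3 chemokines (Cxcl5, Cxcl1 and Cxcl9) between DSS and water in WT, 1 (Cxcl5) between the genotypes on water and 1 (Cxcl5) after DSS. Between the genotypes on water, Cxcl5 was also the 1 chemokine called in a model of all 14 libraries and in one of 13 that left out the library labelled Smad4 KO water replicate 1. Without the filter on low counts, 1 chemokine (Cxcl5) was called between DSS and water in WT. Leaving out 1 library moved the count of chemokines called from 0 to 1 at most. Normalization factors by RLE, and taking out the mitochondrial genes, changed no chemokine call and no sign.

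Counts over all genes moved much more. Between the genotypes after DSS, 113 genes were called, against 499 with DESeq2, 345 without the filter, 2 in 1 model of all 14 libraries, 8 in the model of 13, 1 with the letters that begin the library names as a block, 42 among libraries whose names begin with D, and 27 to 96 with 1 library left out. Between the genotypes on water, 1 gene was called, against 768, 55, 1276, 1151 and 2018 in the first 5 of these, and 1 to 1740 with 1 library left out, the highest without Smad4 IEC-KO water replicate 4. For DSS against water in WT it was 0 (3662 at an unadjusted p below 0.05), against 1777 with DESeq2, 457 without the filter, 2 with the letter block, 9 among the D libraries and 0 to 418 with 1 library left out, the highest without WT water replicate 2. DSS against water in Smad4 IEC-KO gave 1, against 71 with DESeq2, 19 without the filter, 10 and 5 in the models of 14 and 13 libraries, and 1 to 3 with 1 library left out. For the difference between the responses it was 1, against 8 with DESeq2, 2 without the filter and 1 to 5 with 1 library left out. All Smad4 IEC-KO DSS libraries had names beginning with D, and no Smad4 IEC-KO water library did. So only the genotype comparison after DSS and DSS against water in WT were fitted on D libraries alone. In Smad4 IEC-KO, DSS and the letter D cannot be told apart. The letter block took its effect of the letter D from WT libraries alone. The labels do not say what the letters mean. The Smad4 difference after DSS (log2 fold change −2.05, adjusted p = 1.5e-05 by edgeR) lost its call in 2 of 15 alternatives. In 1 of them all 14 libraries shared 1 model (adjusted p = 0.21 by edgeR). That model holds the library labelled Smad4 KO water replicate 1, with 3593 raw Smad4 counts, and its part in the loss was not tested.

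For replicates 1 to 3, the deviations of same-numbered libraries from their group means had correlations of −0.081 to 0.056 over 12 pairs. The replicate 4 libraries of the water groups were not checked for pairing. With the replicate block the genes called were 57 between the genotypes after DSS, 473 on water, 54 for DSS against water in WT and 15 in Smad4 IEC-KO, and no chemokine was called. Under the block, Cxcl16 between the genotypes on water turned to −0.055 and Ccl25 in the difference between the responses to −0.025.

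Other values, up to 0.64 in size as reported (Ccl20 between the genotypes after DSS), changed sign under some alternatives. With the letter block, Cxcl9 turned to 0.12 between the genotypes after DSS, −0.19 on water and 0.31 in the difference between the responses, Cxcl16 to −0.49 between the genotypes on water, Cx3cl1 to −0.0010 for DSS against water in Smad4 IEC-KO and Ccl25 to −0.15 in the difference between the responses. Among the D libraries, Cxcl9 turned to 0.13 after DSS. In the model of 13 libraries, Cxcl10 turned to 0.032 between the genotypes on water and −0.12 for DSS against water in Smad4 IEC-KO, where Cxcl16 turned to −0.24. With 1 library left out, the log2 fold change between the genotypes after DSS ran from −0.93 to 0.12 for Ccl20, −0.22 to 0.13 for Cxcl9 and −0.12 to 0.14 for Cx3cl1. On water it ran from −0.12 to 0.51 for Cxcl9, −0.51 to 0.035 for Cxcl10, −0.29 to 0.40 for Cxcl16 and −0.040 to 0.12 for Cx3cl1. Between DSS and water it ran from −0.26 to 0.80 for Ccl20 in WT, and in Smad4 IEC-KO from −0.11 to 0.36 for Cxcl10 and −0.24 to 0.35 for Cxcl16. The difference between the responses ran from −0.77 to 0.14 for Cxcl1, −0.61 to 0.028 for Cxcl9, −0.31 to 0.28 for Ccl25 and −0.18 to 0.080 for Cx3cl1.

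With 6 to 87 raw counts for Cxcl1 and 17 to 89 for Cxcl10, counting error adds to the spread between libraries, and differences of the size of their standard errors were not detectable at this depth.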
